A study of Mus musculus with 7 samples.

Results

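The 45 cell cycle and DNA replication genes described here were listed by name, and 42 of them were measured, out of 16462 gene symbols on the array. Members were all probes whose annotated symbol is on the list, with the probes of 1 gene averaged, and 47 probes were used. Cyclin gene Ccnb1, kinase gene Aurkb and the proliferation marker gene Mki67 had no probe annotated with their symbol alone and were not analysed here. The livers came from 3 mice without C3ar1 (C3ar1-/-), the gene of the C3a receptor of complement, and from 4 littermates of wild type, all on a chow diet. Each liver had its own 2-colour array, on which it was set against a common pool made from 6 wild-type livers, and whether the pool holds the 4 wild types is not stated. The labels give no age, sex, strain or allele design. Livers carry the numbers of the labels, 2 to 4 for the knockouts and 1 to 4 for the wild types.

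Values are log ratios, read as log10 and most likely mouse over pool, so that 0 is the level of the pool. The sources used here state neither the base nor the direction, and the other direction in all columns would change the sign of every value. Dyes were swapped per the series' design text, and how each column treats the swap is unknown. A direction that differed between columns would also change the comparisons between livers. A log ratio holds no absolute level. It cannot show which members were expressed in liver, whether a probe was above background, or whether the defining hepatocyte genes were present. Whole liver was profiled, so fewer cells of a type and less RNA per cell cannot be told apart.

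As background, a cell that leaves quiescence passes a restriction point at which D and E cyclins with their kinases release E2F transcription factors. E2F targets include the MCM helicase, the origin loading factors and the enzymes that make deoxynucleotides. A later wave of genes, held down in quiescence by the DREAM complex through CHR elements and driven by B-MYB and FOXM1, serves mitosis. Most hepatocytes of an adult liver are quiescent, and re-enter the cycle after tissue loss. The members were therefore read as a replication arm of 18 genes, a mitosis arm of 17 measured genes, and 7 regulators of the G1 and S phases.

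The 2 arms are known for different promoter elements, and the RefSeq promoter windows (GRCm38.p6, 250 bases before to 50 after the annotated start) were searched for them on both strands. The E2F letters searched were TTTCCCGC, TTTGGCGC, TTTCGCGC and TTTGCCGC, the CHR letters TTTGAA and the NF-Y letters CCAAT. Windows were found for 35 of the 42 measured members. E2F letters were in 8 of 17 windows of the replication arm, or 47.1%, in 1 of 14 windows of the mitosis arm, or 7.14%, and in 2.26% of all 32851 windows. CHR and CCAAT letters stood together in 10 of 14 windows of the mitosis arm, or 71.4%, in 2 of 17 of the replication arm, or 11.8%, and in 6.95% of all windows. Of the 6 windows of the regulators, 1 held E2F letters and 0 held CHR letters. In 1 member window matches of 2 motifs overlapped. A match of letters is a description of the window and shows no binding.

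The windows printed here belong to members on which the results turn: subunits of the MCM helicase whose differences had opposite signs (Mcm6 and Mcm7, the first of 2 windows of Mcm7), the members lowest in 1 knockout liver (Pcna and Pola1), and 2 mitotic kinases (Aurka and Cdk1). Capitals mark the letters of any of the 3 motifs. The windows are chr1:128359656-128359955, minus strand, for Mcm6, chr5:138171834-138172133, minus strand, for Mcm7, chr2:132253131-132253430, minus strand, for Pcna, chrX:93632106-93632405, minus strand, for Pola1, chr2:172370521-172370820, minus strand, for Aurka, and chr10:69352863-69353162, minus strand, for Cdk1. Each reads 5′ to 3′ along its gene.
Mcm6: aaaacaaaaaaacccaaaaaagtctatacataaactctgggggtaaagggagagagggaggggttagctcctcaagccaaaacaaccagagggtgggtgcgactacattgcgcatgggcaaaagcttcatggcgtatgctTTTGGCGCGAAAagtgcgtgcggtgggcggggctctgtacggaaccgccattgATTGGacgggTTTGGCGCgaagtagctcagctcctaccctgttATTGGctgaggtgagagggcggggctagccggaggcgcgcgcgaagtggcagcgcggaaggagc
Mcm7: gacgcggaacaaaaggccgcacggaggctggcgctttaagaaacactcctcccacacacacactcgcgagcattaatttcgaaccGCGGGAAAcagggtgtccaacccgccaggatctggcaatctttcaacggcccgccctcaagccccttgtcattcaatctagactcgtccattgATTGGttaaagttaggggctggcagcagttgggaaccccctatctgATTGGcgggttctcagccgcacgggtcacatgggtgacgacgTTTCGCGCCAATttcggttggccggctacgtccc
Pcna: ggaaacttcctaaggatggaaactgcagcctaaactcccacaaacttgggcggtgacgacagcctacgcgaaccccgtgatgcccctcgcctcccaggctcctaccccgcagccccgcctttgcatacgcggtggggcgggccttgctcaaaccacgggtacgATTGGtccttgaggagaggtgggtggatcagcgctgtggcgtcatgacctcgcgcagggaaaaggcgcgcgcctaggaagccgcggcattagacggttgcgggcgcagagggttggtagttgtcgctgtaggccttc
Pola1: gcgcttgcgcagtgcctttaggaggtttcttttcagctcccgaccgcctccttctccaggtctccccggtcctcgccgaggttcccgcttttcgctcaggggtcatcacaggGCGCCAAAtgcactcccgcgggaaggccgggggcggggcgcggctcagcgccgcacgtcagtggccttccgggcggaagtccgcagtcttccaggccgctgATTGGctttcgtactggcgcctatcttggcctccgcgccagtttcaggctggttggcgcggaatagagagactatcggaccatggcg
Aurka: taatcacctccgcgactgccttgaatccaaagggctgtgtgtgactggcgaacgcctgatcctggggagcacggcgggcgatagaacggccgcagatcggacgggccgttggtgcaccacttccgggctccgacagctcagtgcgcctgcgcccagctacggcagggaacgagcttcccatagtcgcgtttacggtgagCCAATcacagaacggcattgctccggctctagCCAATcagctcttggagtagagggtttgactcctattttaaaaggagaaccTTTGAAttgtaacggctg
Cdk1: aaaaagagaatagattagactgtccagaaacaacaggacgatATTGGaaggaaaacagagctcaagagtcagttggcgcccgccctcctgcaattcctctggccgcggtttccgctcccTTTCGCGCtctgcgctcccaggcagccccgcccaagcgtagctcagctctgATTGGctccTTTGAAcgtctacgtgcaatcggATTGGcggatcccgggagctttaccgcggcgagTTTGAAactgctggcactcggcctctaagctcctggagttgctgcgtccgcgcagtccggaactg

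Those of Mcm6 and Mcm7 held 3 and 2 E2F matches and no CHR match, and that of Pola1 held 1 E2F match. The Pcna window held CCAAT letters and neither of the others in these spellings. The Aurka window held 1 CHR and 2 CCAAT matches, and that of Cdk1 held 2 CHR, 3 CCAAT and 1 E2F match.

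The arrays differed in spread. Knockout liver 2 had an SD over probes of 0.0975, against 0.0547 and 0.0676 in the other knockouts and 0.0466 to 0.0573 in the wild types. It held the highest value of the 7 livers for 29.2% of all features and the lowest for 18.7%. The lowest correlation between arrays was -0.25, for knockout liver 4 and wild-type liver 1. No pair of arrays shared identical values in more than 0.119% of probes. The C3ar1 probe averaged 0.0298 ± 0.0238 in knockout livers, against -0.00313 ± 0.0319 for the wild types (SD, n = 3 and 4). Since the labels do not say which exons were removed, the probe may lie outside them and checks no label. Differences that changed by over 1.5 times without knockout liver 2 are given with and without it for the members described liver by liver.

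The comparison of knockout with wild type called none of the 42 members in either direction. Each was tested with limma in a fit over 22212 features, with Benjamini-Hochberg adjustment, and the smallest adjusted p of a member was 0.884. The background was as sparse, with 0% of features called higher and 0.0045%, or 1 feature, called lower. Members divided evenly, 21 higher and 21 lower, while 42.8% of all features were lower. The even split rested on knockout liver 2, without which 15 members were higher and 27, or 64.3%, lower, against 46.6% of all features. The largest difference, that of Pcna, corresponds to 1.39-fold in base 10, and no member differed by as much as 1.5-fold in either direction. A larger difference is not shown to be absent, since the 95% interval of Pcna reaches 1.98-fold lower and that of Rrm2 2.29-fold higher. The median difference of the members was -0.00215, beside 0.00558 over all features. At an unadjusted p under 0.05 limma listed 4 members as lower, or 9.52% of them, against 2.66% of all features, and 1 as higher, or 2.38%, against 1.89%. All 3 knockout values lay below all 4 wild-type values in 3 members, or 7.14%, against 2.56% of all features, and above them in 2 members, or 4.76%, against 2.71%. An ordinary test per gene, without pooling of the spread, called 0 of all features. These small counts are descriptions, since no test was made over the list.

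**Figure D1:**
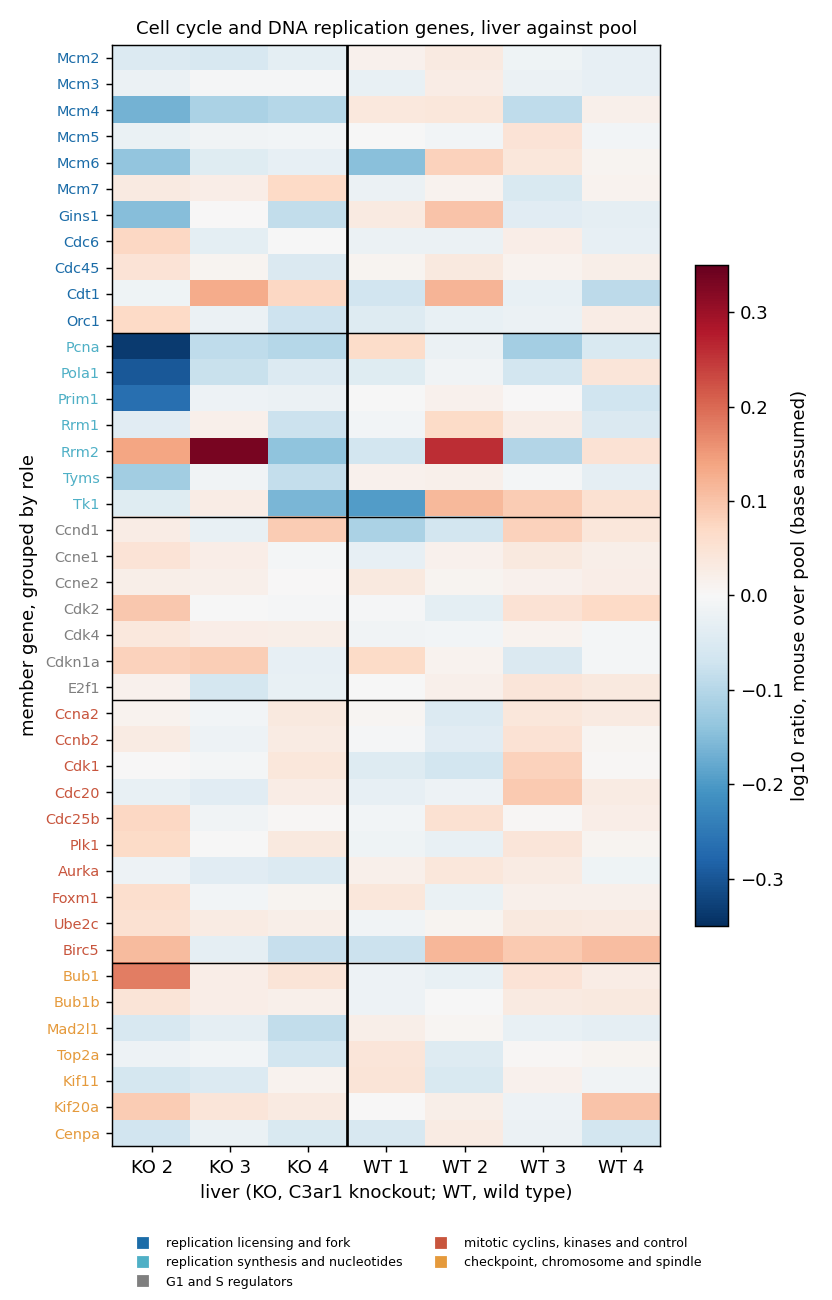
Log10 ratio of mouse over pool (base assumed) for the 42 measured members, with knockout livers 2 to 4 left of the line and wild-type livers 1 to 4 right of it, and genes grouped and coloured by role. The strongest colours are in the synthesis and nucleotide genes, with Pcna at -0.334 in knockout liver 2 and Rrm2 at 0.333 in knockout liver 3, and no role is uniformly higher or lower in the knockouts.

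**Figure D2:**
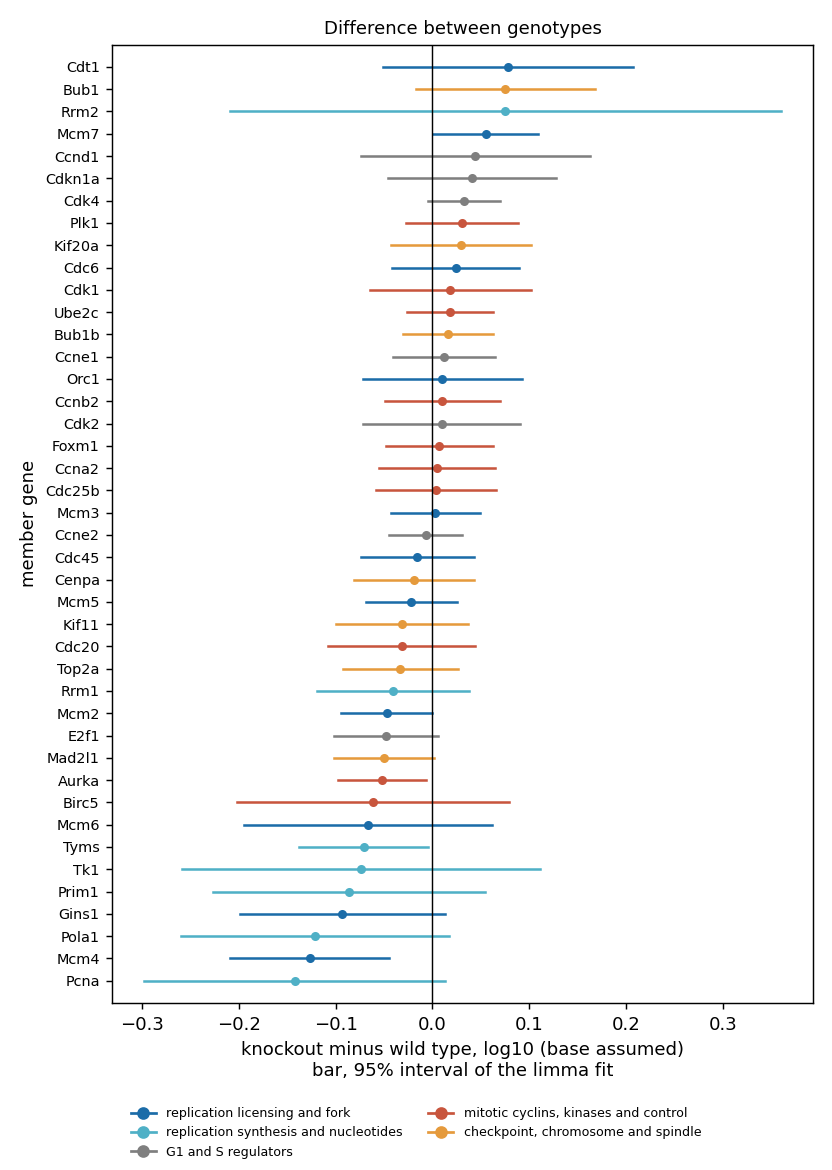
Difference between knockout and wild type for each member on the log10 scale (base assumed), points, with its 95% interval from the limma fit, bars, coloured by role. The members run from -0.142 for Pcna to 0.0779 for Cdt1, and the intervals of Mcm4, Tyms, Aurka and Mcm2 lie below 0 and that of Mcm7 above it before any adjustment for the number of features.

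Licensing and fork genes load and run the replicative helicase. Its 6 MCM subunits form 1 ring, and the differences of their RNAs had both signs, none of which passed the test. Mcm4 read -0.167, -0.112 and -0.0991 in knockout livers 2, 3 and 4, against 0.0362, 0.0395, -0.0885 and 0.0167 in wild-type livers 1 to 4. All knockouts were below the pool and below every wild type, although wild-type liver 3 lay close to the nearest knockout. The difference of -0.127 ± 0.0355 (SE) had the smallest p among the members (limma, adjusted p = 0.884), and corresponds to 1.34-fold. Across the 17 alternatives it ran from -0.157 to -0.107, and it was -0.107 without knockout liver 2.

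Mcm2 read -0.0469, -0.0554 and -0.0347 in knockout livers 2 to 4, against 0.0145, 0.0326, -0.0138 and -0.0280 in the wild types. The groups again did not overlap, with a gap smaller than the spread within either group, and a difference of -0.0470 ± 0.0202 (limma, adjusted p = 0.884). Mcm7 went the other way, at 0.0319, 0.0234 and 0.0709 in the knockouts, against -0.0208, 0.0116, -0.0543 and 0.0124 in the wild types. Its difference was 0.0548 ± 0.0234 (limma, adjusted p = 0.884), or 1.13-fold. The other subunits overlapped between groups. Mcm6 read -0.139, -0.0417 and -0.0287 in the knockouts, against -0.145, 0.0820, 0.0388 and 0.0093 in the wild types, and was thus low in 1 liver of each genotype. Its difference was -0.0662 ± 0.0550, and -0.0315 without knockout liver 2. Mcm3 differed by 0.00283 ± 0.0198, or by 0.0082 without knockout liver 2, and Mcm5 by -0.0217 ± 0.0201.

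Gins1, a subunit of the GINS complex that joins the helicase at the fork, read -0.150, 0.0006 and -0.0860 in the knockouts, against 0.0310, 0.0997, -0.0402 and -0.0319 in the wild types. Knockout liver 3 lay among the wild types, and the difference of -0.0931 ± 0.0454 did not pass (limma, adjusted p = 0.884). It was -0.0574 without knockout liver 2. Cdt1, which brings the helicase to origins, read -0.0163, 0.129 and 0.0720 in the knockouts, against -0.0661, 0.119, -0.0265 and -0.0925 in the wild types. Its highest livers were knockout 3 and wild-type 2, 1 of each genotype, and its difference was 0.0779 ± 0.0556. The remaining licensing genes, Cdc6 and the origin recognition subunit gene Orc1, with the helicase partner gene Cdc45, differed by 0.0238, 0.0102 and -0.0156. Without knockout liver 2 these differences were -0.00613, -0.0288 and -0.0385, so that Cdc6 and Orc1 turned sign.

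Synthesis and nucleotide genes held the widest values. Pcna, the sliding clamp of the replicative polymerases, read -0.334, -0.0891 and -0.100 in knockout livers 2 to 4, against 0.0634, -0.0215, -0.118 and -0.0522 in the wild types. Knockout liver 2 stood apart, while the other knockouts lay within the wild-type range. Only 0.770% of all features on that array were lower than Pcna. The 2 probes of Pcna differed by at most 0.0061 in any liver, so the low value was read by both. The difference was -0.142 ± 0.0667 (limma, adjusted p = 0.884) and -0.0625 without knockout liver 2.

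Pola1, the catalytic subunit of DNA polymerase alpha, read -0.296, -0.0779 and -0.0479 in the knockouts, against -0.0416, -0.0129, -0.0652 and 0.0433 in the wild types. Prim1, the primase subunit of the same enzyme, read -0.264, -0.0170 and -0.0198 in the knockouts, against -0.0010, 0.0147, 0.0013 and -0.0707 in the wild types. In both genes knockout liver 2 stood far below all other livers, with 1.34% and 1.99% of that array's features lower still. In Pola1 knockout liver 3 also lay below every wild type, by a small gap. The partner subunit genes Pola2 and Prim2, which are no members and were looked up after these values were seen, read 0.0237 and 0.0037 in knockout liver 2. They are 2 of 35 further replication genes, described below, of which 11 were above 0 in that liver. Others of them were low there, such as Orc4 at -0.281 and Rpa3 at -0.204. The differences were -0.122 ± 0.0595 for Pola1 and -0.0863 ± 0.0603 for Prim1 (limma, adjusted p = 0.884 for both). Without knockout liver 2 that of Pola1 was -0.0438, and that of Prim1 was -0.00448.

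Tyms, the thymidylate synthase, read -0.122, -0.0130 and -0.0838 in the knockouts, against 0.0139, 0.0174, -0.0068 and -0.0322 in the wild types. Knockout liver 3 overlapped with the wild types, and the difference was -0.0711 ± 0.0285 (limma, adjusted p = 0.884), or -0.0465 without knockout liver 2. Rrm2, the regulated small subunit of ribonucleotide reductase, had the widest range of all members, with 0.138, 0.333 and -0.140 in the knockouts, against -0.0650, 0.258, -0.103 and 0.0502 in the wild types. Each genotype held high and low livers, and the difference of 0.0750 ± 0.122 turned to -0.0364 without knockout liver 3. Rrm1, the large subunit, differed by -0.0406 ± 0.0336 and ranged over 0.142 in the 7 livers, where Rrm2 ranged over 0.473.

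Thymidine kinase gene Tk1 read -0.0423, 0.0266 and -0.161 in the knockouts, against -0.196, 0.114, 0.0877 and 0.0537 in the wild types. Knockout liver 4 and wild-type liver 1 were its low samples. Prim1, Tk1 and Cdt1 were given value by value after their values were seen.

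**Figure D3:**
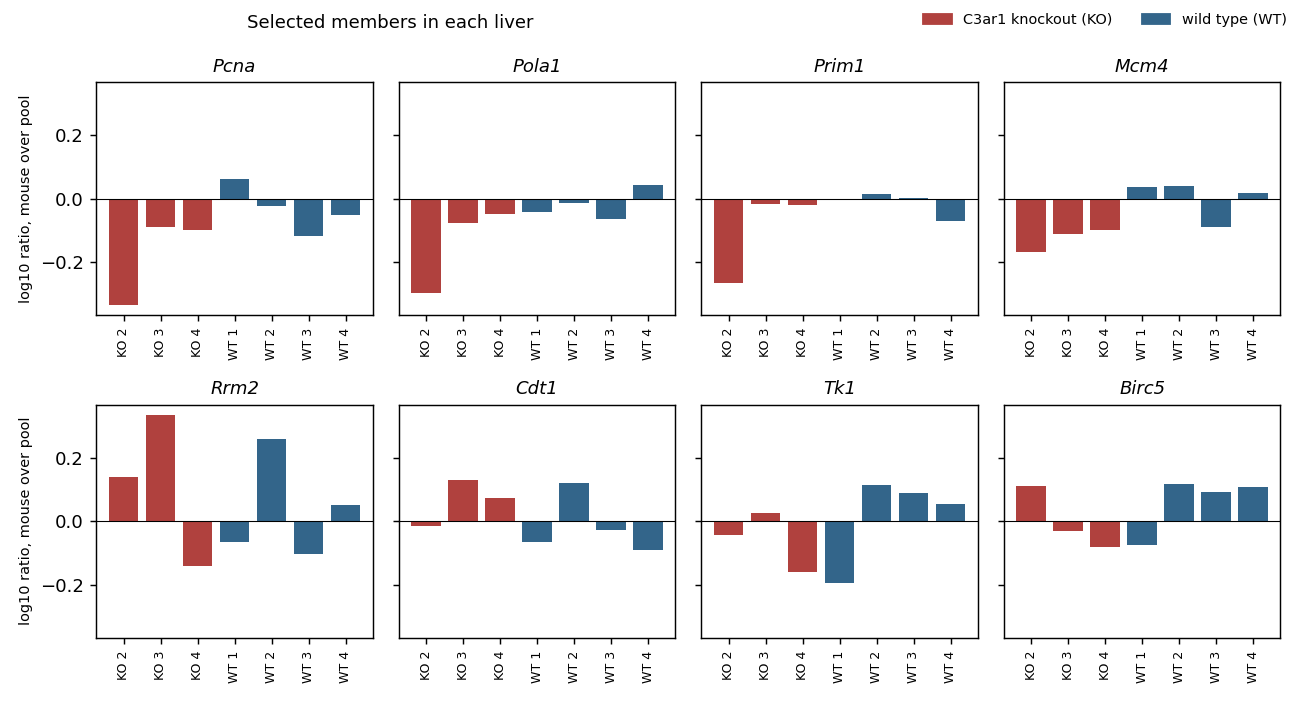
Log10 ratio of mouse over pool in each liver (bars, base assumed) for 8 members, knockouts in red at the left of each panel and wild types in blue. Pcna, Pola1 and Prim1 share their lowest value in knockout liver 2, Rrm2 and Cdt1 are highest in knockout liver 3 and wild-type liver 2, and Tk1 and Birc5 are lowest in knockout liver 4 and wild-type liver 1.

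Regulators of G1 and S showed small differences. Cdk4, the kinase partner of D cyclins, read 0.0382, 0.0239 and 0.0216 in the knockouts, against -0.0126, -0.0095, 0.0112 and -0.0080 in the wild types. The groups did not overlap, and the difference was 0.0326 ± 0.0161 (limma, adjusted p = 0.884), or 1.08-fold. This is the mean of 3 probes that differed by up to 0.0591 in knockout liver 2. Probe 2 kept the groups apart, while probes 1 and 3 did not. In probe 1 knockout liver 2 read -0.0009 and wild-type liver 2 read 0.0200. In probe 3 knockout liver 3 read 0.0126 and wild-type liver 3 read 0.0253. E2f1, a transcription factor of the S phase genes, read 0.0144, -0.0623 and -0.0253 in the knockouts, against -0.0016, 0.0176, 0.0434 and 0.0333 in the wild types, with knockout liver 2 among the wild types. Its difference was -0.0476 ± 0.0231 (limma, adjusted p = 0.884).

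Ccnd1, the cyclin D1 gene, read 0.0272, -0.0254 and 0.0887 in the knockouts, against -0.112, -0.0651, 0.0812 and 0.0388 in the wild types. The wild types alone covered nearly the whole range. Cdkn1a, which encodes the cyclin-dependent kinase inhibitor p21, read 0.0799, 0.0869 and -0.0275 in the knockouts, against 0.0663, 0.0129, -0.0495 and -0.0064 in the wild types. It was high in livers of both genotypes, and differed by 0.0406 ± 0.0371, or by 0.0239 without knockout liver 2. The cyclin E genes Ccne1 and Ccne2 and their kinase gene Cdk2 differed by 0.0117, -0.00713 and 0.0097, and by -0.00173, -0.0108 and -0.0226 without knockout liver 2. Ccne2 had an SD over the livers lower than that of all but 1.43% of features.

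Cyclins, kinases and control genes of mitosis also stayed near the pool, except Birc5, which varied more than 91.9% of all features. Aurka, the kinase of the spindle poles, read -0.0177, -0.0383 and -0.0489 in the knockouts, against 0.0185, 0.0387, 0.0277 and -0.0156 in the wild types. All knockouts lay below all wild types, knockout liver 2 and wild-type liver 4 being close together. The difference was -0.0523 ± 0.0196 (limma, adjusted p = 0.884), or 1.13-fold, and ran from -0.0633 to -0.0452 over the alternatives. Plk1, the polo-like kinase of mitotic entry, read 0.0677, -0.0012 and 0.0345 in the knockouts, against -0.0139, -0.0256, 0.0437 and 0.0094 in the wild types. It overlapped between groups, and its difference had the other sign, 0.0303 ± 0.0248, or 0.0133 without knockout liver 2.

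Cdk1, the kinase that drives mitosis, read 0.0005, -0.0060 and 0.0405 in the knockouts, against -0.0450, -0.0656, 0.0793 and 0.0040 in the wild types. Its extremes were wild-type livers 2 and 3. Its cyclin partners Ccna2 and Ccnb2 differed by 0.00433 and 0.0101, the latter by 0.0021 without knockout liver 2. The anaphase activator gene Cdc20 differed by -0.0318. For all 4 of these genes wild-type liver 3 was the highest of the 7 livers. Birc5, which encodes survivin of the chromosomal passenger complex, read 0.112, -0.0327 and -0.0811 in the knockouts, against -0.0747, 0.117, 0.0920 and 0.108 in the wild types. Its low livers were knockouts 3 and 4 and wild-type 1, and it differed by -0.0614 ± 0.0604, or by -0.117 without knockout liver 2. The transcription factor gene Foxm1, the phosphatase gene Cdc25b and the ubiquitin-conjugating enzyme gene Ube2c differed by 0.00691, 0.00372 and 0.0183, and by -0.0121, -0.0219 and 0.00908 without knockout liver 2.

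Checkpoint, chromosome and spindle genes followed the same pattern of overlap. Bub1, a checkpoint kinase of the kinetochore, read 0.178, 0.0224 and 0.0462 in the knockouts, against -0.0189, -0.0248, 0.0476 and 0.0252 in the wild types. Knockout liver 2 alone lay outside the wild-type range on the high side, and the difference of 0.0750 ± 0.0398 (limma, adjusted p = 0.884) was 0.0270 without it. Mad2l1, a checkpoint protein that restrains Cdc20, read -0.0563, -0.0304 and -0.0868 in the knockouts, against 0.0193, 0.0074, -0.0265 and -0.0314 in the wild types. The groups overlapped by 1 liver on each side, and the difference was -0.0501 ± 0.0220 (limma, adjusted p = 0.884). Its 2 probes differed by up to 0.0937 in knockout liver 2.

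Top2a, the topoisomerase that untangles chromosomes, read -0.0191, -0.0097 and -0.0629 in the knockouts, against 0.0415, -0.0461, 0.0052 and 0.0091 in the wild types, a difference of -0.0330 ± 0.0254. Kif20a, a kinesin of the central spindle, read 0.0876, 0.0435 and 0.0324 in the knockouts, against 0.0006, 0.0194, -0.0189 and 0.0994 in the wild types, a difference of 0.0294 ± 0.0311, or 0.0128 without knockout liver 2. The spindle motor gene Kif11 differed by -0.0312, the checkpoint kinase gene Bub1b by 0.0161, and the centromeric histone gene Cenpa by -0.0192. Without knockout liver 2 these differences were -0.0170, 0.0078 and -0.0102. None of these genes separated the groups. Foxm1, Mcm2 and Mad2l1 lie on chromosome 6, the chromosome of C3ar1, and Foxm1 is the nearest of them to it in the GRCm38.p6 gene table.

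The arms were then set against each other in each liver. The replication arm averaged -0.0721, 0.00361 and -0.0483 in knockout livers 2, 3 and 4, against -0.0261, 0.0459, -0.0179 and -0.0107 in wild-type livers 1 to 4. Knockout liver 3 lay within the wild-type range, and wild-type liver 2 was the highest. The mitosis arm averaged 0.0277, -0.0095 and -0.00172 in the knockouts, against -0.00631, -0.00412, 0.0302 and 0.0178 in the wild types, and its groups overlapped throughout. The livers did not keep their order. Knockout liver 2 was the lowest of 7 in the replication arm and the second highest in the mitosis arm, and knockout liver 3 was the second highest in the replication arm and the lowest in the mitosis arm.

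Group means of the replication arm were -0.0389 ± 0.0387 over the knockouts and -0.00219 ± 0.0326 over the wild types (SD, n = 3 and 4), a difference of -0.0367. This was -0.0201 without knockout liver 2, -0.0580 without knockout liver 3, and -0.0207 when wild-type 2 was dropped. In the mitosis arm they were 0.00549 ± 0.0196 for the knockouts and 0.00939 ± 0.0176 for the wild types, a difference of -0.0039, or -0.015 without knockout liver 2 and 0.00359 without knockout liver 3. Replication minus mitosis was -0.0998, 0.0131 and -0.0466 in the knockouts, against -0.0198, 0.05, -0.0481 and -0.0285 in the wild types. The difference between genotypes in this contrast, -0.0328, was smaller than the SD within either group, 0.0565 in the knockouts, against 0.0427 in the wild types. It rested on single livers of both genotypes. Leaving out knockout 2 brought it to -0.00513, and dropping wild-type 2 instead gave -0.0123. With array weights it turned to 0.00895. No p is given, since the members were chosen with results of these data known.

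**Figure D4:**
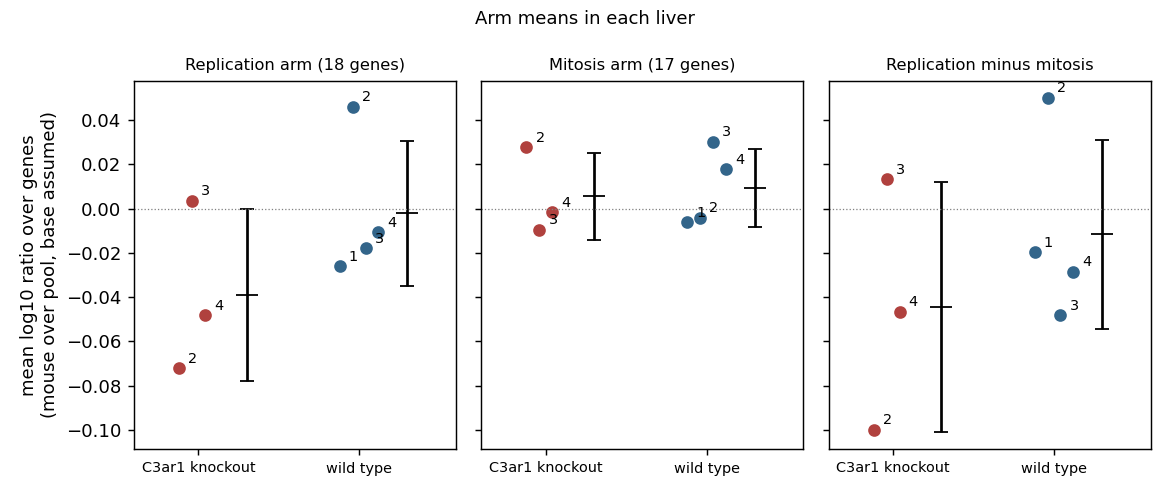
Mean log10 ratio (mouse over pool, base assumed) over the genes of each arm, 1 point per liver numbered as in the labels, knockouts left and wild types right, with group mean and SD as the bar beside them. The genotypes overlap in all 3 panels, and knockout liver 2 is lowest in the replication arm at -0.0721 and near the top of the mitosis arm at 0.0277.

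Members above the pool were counted in each liver as a check on single genes that weigh on a mean. In the replication arm 5, 7 and 2 of 18 genes were above 0 in knockout livers 2 to 4, against 6, 13, 7 and 8 in the wild types. In the mitosis arm 11, 4 and 12 of 17 were above 0 in the knockouts, against 7, 7, 14 and 13 in the wild types. Wild-type liver 2 held the highest value of the 7 livers for 9 of the 18 replication genes, or 50% of them, and for 14.8% of all features. Knockout liver 2 held the lowest value for 7 of them, or 38.9%, against 18.7% of all features.

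Spread over the 7 livers was widest in the synthesis and nucleotide genes, and rested in part on knockout liver 2. The median SD was 0.107 for the 7 synthesis and nucleotide genes, 0.0397 for the 11 licensing and fork genes, 0.0365 for the regulators, 0.0331 for the 10 cyclin, kinase and control genes and 0.0360 for the 7 checkpoint, chromosome and spindle genes. The median over all features was 0.0361. Of the 7 members wider than 90% of features, 6 were replication genes, namely Rrm2, Pcna, Tk1, Pola1, Prim1 and Cdt1, and 1 was the mitotic gene Birc5. In the mitosis arm 11 of 17 members were narrower than the median feature. Without knockout liver 2, a setting chosen after the values were seen, the median SD was 0.0521 for the synthesis and nucleotide genes, 0.0326 for the licensing and fork genes and 0.0326 for all features. The SD was then 0.0299 in Prim1, 0.0438 in Pola1 and 0.0667 in Pcna, while those of Rrm2 and Tk1, 0.198 and 0.133, were still wider than over 90% of features. How far a probe reads above background bears on such a spread, and was not tested.

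**Figure D5:**
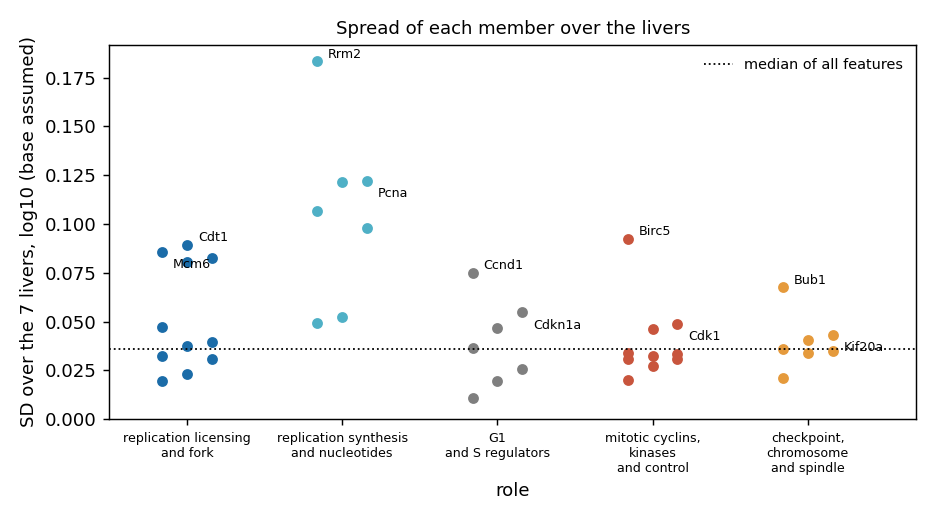
SD of each member over the 7 livers on the log10 scale (base assumed), 1 point per gene by role, with the 2 widest genes of each role named and the median of all 22212 features as the dotted line at 0.0361. All 7 synthesis and nucleotide genes lie above the line, and most mitotic genes lie near or below it.

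Other genes of the same pathways came from 3 lists of genes that are no members. Of 35 measured genes of the replication machinery 24 were lower and 11 higher, with a median difference of -0.0285. Over all features 42.8% were lower, with a median difference of 0.00558. None of the 35 passed limma's test, and 2, or 5.71%, were lower at an unadjusted p under 0.05, against 2.66% of all features. In Mcm8, a relative of the MCM subunits, the knockouts read -0.105, -0.0642 and -0.160, against 0.0319, 0.0636, -0.0434 and -0.05 in the wild types, without overlap (limma, adjusted p = 0.884). Mcm8 alone of the 35, or 2.86%, had all knockouts below all wild types, near the 2.56% of all features. Gmnn, the geminin gene whose protein blocks Cdt1, differed by -0.166 ± 0.0645, and Rpa3, a subunit of the single-strand binding protein, by -0.108 ± 0.0488. Gmnn read -0.100, 0.002 and -0.282 in knockout livers 2 to 4, and Rpa3 read -0.204, -0.0357 and -0.168. In both genes knockout liver 3 lay within the wild-type range. Of 51 genes of the mitosis machinery 36 were lower and 15 higher, with a median of -0.0168. None passed, and at an unadjusted p under 0.05 6, or 11.8%, were lower and 1, or 1.96%, higher, against 2.66% and 1.89% of all features. In 8 of them, or 15.7%, all knockouts lay below all wild types, against 2.56% of all features. They included Cks1b, a small partner of cyclin-dependent kinases, with a difference of -0.0914 ± 0.0235, and the condensin subunit gene Smc2, with -0.146 ± 0.0501, while the checkpoint gene Mad1l1 was higher in every knockout, with a difference of 0.0666 ± 0.0214 (limma, adjusted p = 0.884 for each). Mad1l1 alone, or 1.96% of this list, had all knockouts above all wild types, against 2.71% of all features. Of 27 further G1, S and quiescence regulators 16 were lower and 11 higher, with a median of -0.0151. None passed or had an unadjusted p under 0.05, and Cdkn2d, Ccng1 and Lin54 had the smallest p, with differences of -0.107, -0.104 and -0.110. Cdkn2d was lowest in knockout liver 3 at -0.174, and Ccng1 and Lin54 in knockout liver 2 at -0.231 and -0.216.

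Averaged in each liver, the replication machinery list ran from -0.0420 to -0.0188 in the knockouts and from -0.0130 to 0.0275 in the wild types, and the mitosis machinery list from -0.0241 to -0.0112 in the knockouts and from -0.00192 to 0.0166 in the wild types. Both lists kept the genotypes apart by their means, while neither arm of the members did. By medians both lists overlapped. For the replication machinery, knockout 3 at -0.0123 lay above wild-type 4 at -0.0129. For the mitosis machinery, knockout 2 at 0.0022 lay above wild types 1 and 2, at 0.0008 and -0.0004. Means of the further regulators overlapped too, with knockouts at -0.0422 to -0.0115 and wild types at -0.0430 to 0.0280. How often the mean of any list separates the genotypes was not tested.

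Markers of cell types in liver were read beside these values, since dividing blood and other cells can carry the same genes. The 9 measured hepatocyte markers averaged from 0.00269 to 0.104 in the knockouts and from -0.0627 to 0.0824 in the wild types, and 8 of 9 were higher. The widest of them, Tat, the tyrosine aminotransferase gene, read 0.249, 0.407 and 0.0375 in the knockouts, against -0.212, 0.398, -0.186 and 0.122 in the wild types, with its highest livers the same as those of Rrm2 and Cdt1. All 10 macrophage and Kupffer cell markers were higher, and their mean was 0.122 in knockout liver 4, -0.113 and -0.179 in the other knockouts and from -0.242 to -0.0723 in the wild types. The 8 erythroid markers, 3 higher and 5 lower, averaged from -0.0420 to 0.0153 in the knockouts and from -0.0346 to 0.0441 in the wild types. The 11 lymphocyte markers, 9 of them higher, ran from -0.0165 to 0.0130 in the knockouts and from -0.0209 to 0.0253 in the wild types. The 7 neutrophil and granulocyte markers, 4 of them higher, ran from -0.0660 to 0.0521 in the knockouts and from -0.0467 to -0.00667 in the wild types. Endothelial markers were higher in 9 of 10, stellate and fibroblast markers in 7 of 9 and bile duct markers in 3 of 5. Over all features 57.2% were higher, a share that the bile duct and the neutrophil and granulocyte counts lay near. None of these markers passed limma's test over all features. At an unadjusted p under 0.05 it listed 1 macrophage marker, 2 lymphocyte markers, 2 endothelial markers and 1 stellate marker as higher and 1 lymphocyte and 1 erythroid marker as lower, where 1.89% of all features were listed as higher and 2.66% as lower. The markers and the members share the same arrays, and their part in the members' values was not tested.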

How the data were processed

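Liver RNA of 7 mice was measured on 2-colour arrays, each against a common pool. The deposited values were log ratios of 23574 probes, read here as log10 (the base is assumed), centred near 0 by the authors with a normalization not given in the sources used here. Per the labels' protocols, RNA was column-purified with DNase, amplified and labelled through aminoallyl nucleotides. The labels list Cy3 first and Cy5 second on every array. Dyes were swapped per the series' design text, and how each column treats the swap is unknown. The table had 0 unused value columns. Signal over background was not analysed here, and the small number of arrays limits the precision.

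Of the probes, 17824 had 1 symbol, 50 had several and 5700 had none. Symbols were updated through the GRCm38.p6 gene table through the Entrez number for 17724 of them and the accession for 21, and 79 kept their own. Probes of 1 symbol were averaged, and the others kept singly, which gave 22212 features. Knockout and wild type were compared by limma's moderated test (version 3.58.1, under R 4.3.3). The test was two-sided, and p was adjusted by Benjamini and Hochberg's method across every feature, with a threshold of 0.05. Errors are SDs between livers or SEs from the limma fit, and intervals are at 95%. Animals are separate mice per the labels. The fit was tested on simulated data.

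Members and lists were chosen with earlier results of these data known. In each role, the 3 members of smallest p, the 2 of widest range and those without overlap were to be described, with up to 3 of each further list and up to 2 of each marker list (hepatocyte, macrophage and Kupffer, lymphocyte, neutrophil and granulocyte, erythroid, endothelial, stellate and fibroblast, bile duct). Alternatives were 3 normalizations, a per-probe fit, named features alone, a filter on variation, robust and ordinary tests, array weights, a replicate block and each liver left out. Promoter windows came from RefSeq, GRCm38.p6.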

Additional observations from a re-analysis of the deposited data

Results flagged for a closer look

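In 4 members 1 wild-type liver stood away from the other 3 by more than Dixon's 95% limit for a group of 4. Mcm3 read 0.0272 in wild-type liver 2 and Mcm5 read 0.0479 in wild-type liver 3, each the highest of its group. Cdc6 read 0.0234 in wild-type liver 3, also the highest, and Birc5 read -0.0747 in wild-type liver 1, the lowest. Mcm3 is the mean of 2 probes, which differed by up to 0.093, in wild-type liver 1. In neither probe did wild-type liver 2 stand so far apart. It read 0.0461 beside 0.0197 in wild-type liver 1 for probe 1, and 0.0083 beside 0.0010 in wild-type liver 4 for probe 2. Of 45 sets of wild-type values examined, chance alone flags about 1 in 20. Groups of 3 were not examined, so the low Pcna, Pola1 and Prim1 of knockout liver 2 did not enter.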

How the results depend on the processing

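Over all 17 alternatives 0 members were called, with no adjusted p of a member under 0.620. The difference kept its sign under every alternative in 29 members and turned under at least 1 in 13. Among the 21 members picked by rule, 2 of 356 values turned: Rrm2 was -0.0364 without knockout liver 3 and Cdk1 was -0.0011 without wild-type liver 2, and with single livers left out these genes ran up to 0.2002 and 0.0472. The number of features called, 1 as reported, was 0 after scale normalization, in the ordinary test and with the replicate block, and 3 with the 25% least variable features left out. It was 0 when knockout liver 2, 3 or 4 or wild-type liver 3 was left out, and leaving out wild-type livers 1 and 4, each alone, gave 2 and 3. The median difference of the members was -0.0174 over the 36 members left by the filter on variation, and with single livers left out it ran from -0.0146 (without knockout liver 2) to -0.000375. The replication arm's difference was -0.0201 once knockout 2 was dropped, and -0.0207 once wild-type 2 was. It ran from -0.0580 (without knockout liver 3) to -0.00574 (with array weights). The mitosis arm's ran from -0.015 to 0.00359, and that of replication minus mitosis from -0.0616 to 0.00895. With the replicate block they were -0.0447, -0.00913 and -0.0356. Same-numbered livers correlated at -0.131, -0.207 and -0.150 in their deviations from the group means. Livers of unlike number were not set beside them, so these values cannot show whether same-numbered livers were paired. The cause of these shifts was not tested. Signal over background was not analysed, so its limits are unknown here.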
